A study of Mus musculus with 46 samples.

Results

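Macrophage marker genes were described in the liver of mice on 4 diets, with the cecum beside it. The 10 markers were listed by gene symbol, with earlier results of these data known. Probes were matched to them through the RefSeq accession that the array design gives for each probe. Of the 10 markers, 9 had a probe among the 20887 named genes on the array. Cd68, a lysosomal glycoprotein of macrophages of every kind, had no matching probe and was not analysed here. The markers fall into 6 genes of resident liver macrophages (Cd5l, Clec4f, Vsig4, Marco, Adgre1 and Timd4) and 3 measured genes of recruited, activated or lipid-associated macrophages (Itgax, Trem2 and Gpnmb).

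All mice were male C57BL/6, an inbred strain, 12 weeks old when the diets began and fed for 8 weeks. HFD was a high fat diet with 45% of its energy from fat, and LFD a low fat diet with 10%. HFD + inulin was the HFD with 10% of its weight, taken from corn starch and cellulose at 5% each, given over to inulin, a fructose polymer that the gut microbiota ferment. HFD + inul PB had, in place of plain inulin, 5% each of an inulin propionate ester and an inulin butyrate ester, which carry short chain fatty acids. RNA of whole liver was measured on 24 one-colour Agilent arrays, 6 per diet, and RNA of cecum on 22, with 5 arrays for HFD + inul PB and 5 for LFD. The study describes the arrayed samples as separate mice, whereas the sample labels number the arrays of a diet without naming the mouse, so the P values measure the spread between these arrays.

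Kupffer cells are the resident macrophages of the liver sinusoids, where they take up particles, bacteria and dying cells from portal blood. They keep their numbers mostly by dividing in place, and carry scavenger and complement receptors on their surface. When fat accumulates in the liver, monocytes can enter from the blood and become macrophages that resemble the lipid-associated macrophages of adipose tissue, which express Trem2, Gpnmb and, among others, the integrin Itgax (CD11c). Itgax is also the common marker of dendritic cells. In RNA of whole tissue, fewer cells of a type and less RNA per cell cannot be told apart.

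The tissues carried their own markers. All 8 hepatocyte genes were well above background on all 24 liver arrays, and in cecum all 8 gut epithelial genes were so on all 22 arrays. The separation was not complete. Alb, the albumin gene of hepatocytes, was well above background on 0 of 22 cecum arrays, the only 1 of the 8 hepatocyte genes of which this held. Ttr and Tat of that list were well above background on all 22. Of the gut epithelial genes, Lgals4 and Car1 were so on all 24 liver arrays. Between 46.4% and 51.7% of probes were well above background on a liver array and between 48.4% and 55.9% on a cecum array, by the test of the scanner software. No pair of arrays held identical values. All levels below are normalised log2 signals, so that a difference of 1 is a doubling, and each level is compared only with the same probe on other arrays.

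Of the 9 measured markers, 8 were well above background on all 24 liver arrays. Gpnmb, a transmembrane glycoprotein of lipid-laden macrophages, was well above background on 1 of 24, HFD + inul PB replicate 4 at 5.78, and lay between 2.88 and 4.58 on the others. No fold is given for Gpnmb in liver. A marker was called where the fold difference exceeded 1.5 with an unadjusted limma P under 0.01, the criterion of the study, or where the limma P adjusted by Benjamini-Hochberg over all 55681 probes was under 0.05.

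**Figure D1:**
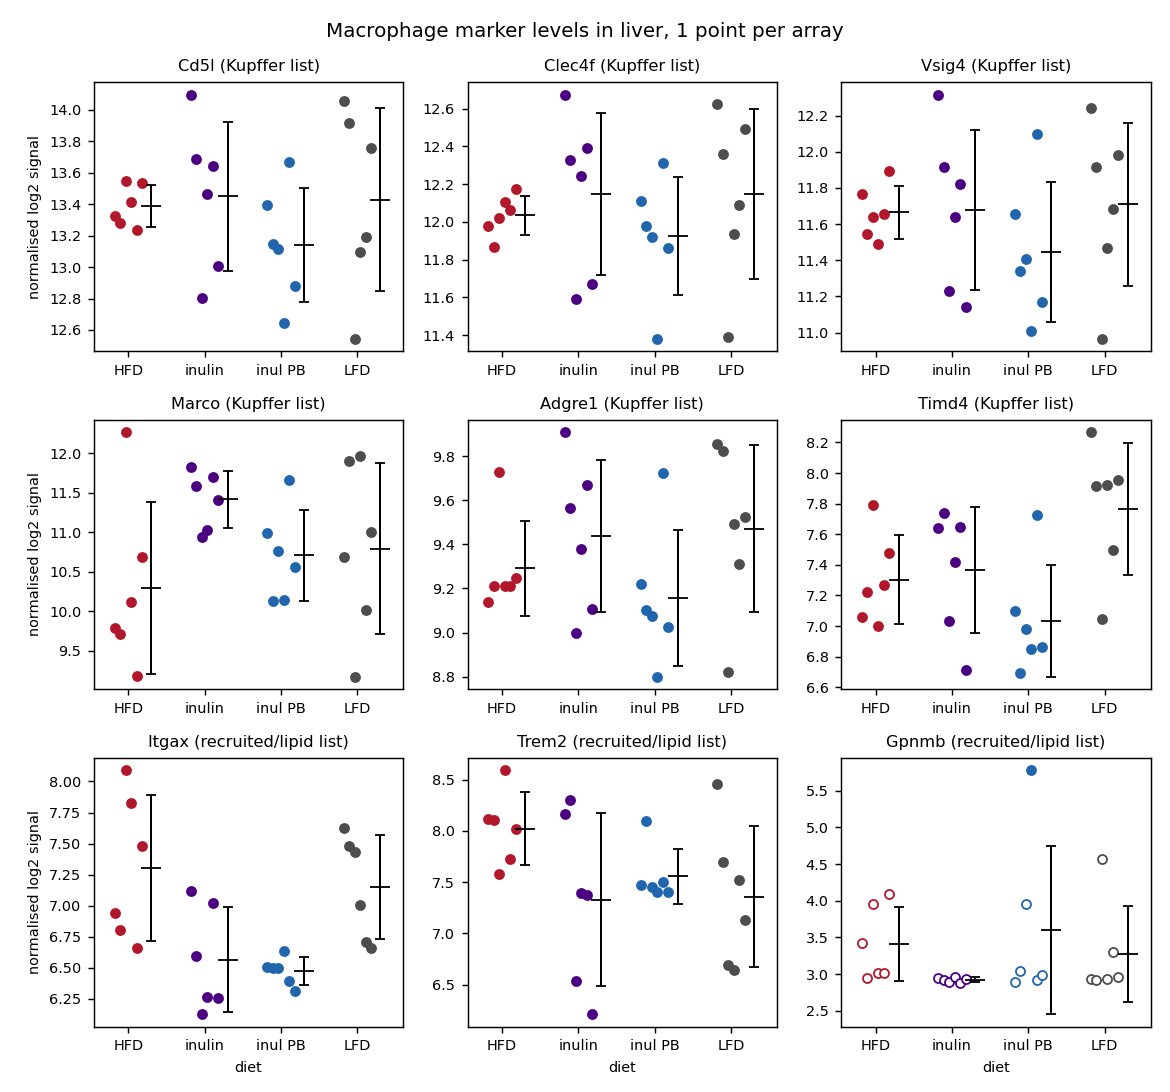
Normalised log2 signal of the 9 measured macrophage markers in liver, 1 panel per gene, by diet. Each point is 1 array, filled where the probe was well above background and open where it was not, and the bar gives the mean ± SD of 6 arrays. The Kupffer cell markers overlapped between all diets, whereas every Itgax array on HFD + inul PB (6.31 to 6.64) lay below every HFD array (6.66 to 8.09).

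Of the 6 resident Kupffer cell markers, none was called in any of the 5 liver comparisons, at either criterion, by limma. Of all probes, between 0.198% and 0.774% were called by fold and P in these comparisons, and between 0% and 0.0593% after adjustment. An unadjusted limma P under 0.05 was found against HFD for 1 of 6 on HFD + inulin (Marco), 0 on HFD + inul PB and 1 on LFD (Timd4), beside 3.79%, 3.13% and 6.77% of all probes. It was found for 0 of 6 between the fiber diets, beside 2.29% of probes, and for 1 (Timd4) between their mean and LFD, beside 7.22%. On HFD + inulin all 6 were higher than on HFD, with differences from 0.01 to 1.12 and a median of 0.09 on the log2 scale. On HFD + inul PB 5 of 6 were lower, with a median of -0.18. On LFD all 6 were higher, with a median of 0.15. The median over all probes lay between -0.001 and 0.004 in these comparisons. These directions share the HFD arrays, and the markers vary together, as described below, so they are not separate results.

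Cd5l, a secreted scavenger receptor protein that tissue macrophages make, ranged from 13.24 to 13.55 on HFD with a median of 13.37. On HFD + inulin it ranged from 12.81 to 14.10 (median 13.55), on HFD + inul PB from 12.65 to 13.67 (13.13) and on LFD from 12.54 to 14.06 (13.48). The HFD arrays lay inside the range of each other diet. Its difference from HFD was 0.06 on HFD + inulin, -0.25 with the esters and 0.04 on LFD, and the 95% intervals all span 0, from -0.43 to 0.56, from -0.74 to 0.25 and from -0.45 to 0.53.

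Clec4f, a C-type lectin that in mice marks Kupffer cells more narrowly than the other genes here, had a mean of 12.03 ± 0.105 (SD, n = 6) on HFD. HFD + inulin gave 12.15 ± 0.428, HFD + inul PB 11.93 ± 0.312 and LFD 12.15 ± 0.451. Differences from HFD were therefore 0.12, -0.11 and 0.11, slightly above the SD on HFD and below the SD on each of the other diets. The intervals of the Clec4f differences (-0.30 to 0.53, -0.52 to 0.30 and -0.30 to 0.53) leave room for changes of up to about that size in either direction.

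Vsig4, the complement receptor CRIg that clears bacteria from blood, had a mean of 11.67 ± 0.146 (SD, n = 6) on HFD, and HFD + inulin gave 11.68 ± 0.442, HFD + inul PB 11.45 ± 0.387 and LFD 11.71 ± 0.451. Adgre1, an adhesion receptor and the general macrophage marker of the mouse, had a mean of 9.29 ± 0.217, 9.44 ± 0.345, 9.16 ± 0.309 and 9.47 ± 0.380 on the same diets. Neither gene differed from HFD by more than 0.22 on any diet, and all 6 of their 95% intervals span 0. A second Adgre1 probe, dimmer in liver, gave differences of 0.16, -0.15 and 0.24, in the same directions.

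The spread within a diet differed between the diets for these genes. On HFD, the SD over 6 arrays was 0.131 for Cd5l, 0.105 for Clec4f and 0.146 for Vsig4. On the other 3 diets the SD of these genes ran from 0.312 to 0.583. This difference in spread was not tested.

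Cd5l, Clec4f and Vsig4 followed each other most closely across liver arrays, so the promoters of these genes are shown as windows of 300 bases around the start, 5′ to 3′ on the gene's own strand, from RefSeq on build GRCm38.p6. They lie at chr3:87357631-87357930 (plus strand), chr6:83656067-83656366 (minus strand) and chrX:96293389-96293688 (minus strand). Capitals mark GAGGAA, a core of the sites bound by the macrophage factor PU.1, or its reverse complement TTCCTC.
Cd5l: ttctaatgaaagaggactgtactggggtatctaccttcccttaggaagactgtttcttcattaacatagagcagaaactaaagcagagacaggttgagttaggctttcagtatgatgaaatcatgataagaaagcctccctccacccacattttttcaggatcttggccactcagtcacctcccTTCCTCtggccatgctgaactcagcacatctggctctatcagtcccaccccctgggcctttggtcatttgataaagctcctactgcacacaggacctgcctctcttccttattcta
Clec4f: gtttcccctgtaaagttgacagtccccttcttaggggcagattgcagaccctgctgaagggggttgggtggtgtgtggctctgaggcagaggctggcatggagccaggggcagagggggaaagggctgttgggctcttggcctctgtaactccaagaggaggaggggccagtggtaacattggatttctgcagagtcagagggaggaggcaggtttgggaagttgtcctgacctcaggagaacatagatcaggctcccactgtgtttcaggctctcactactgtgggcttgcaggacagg
Vsig4: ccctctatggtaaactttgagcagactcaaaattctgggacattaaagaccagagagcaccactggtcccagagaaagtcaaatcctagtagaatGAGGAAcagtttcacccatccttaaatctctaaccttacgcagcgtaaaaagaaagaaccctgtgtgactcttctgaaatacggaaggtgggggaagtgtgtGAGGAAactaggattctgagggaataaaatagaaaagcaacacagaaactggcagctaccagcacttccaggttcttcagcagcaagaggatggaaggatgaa

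The Vsig4 window held GAGGAA at bases 96 and 198 from its 5′ end, and the Cd5l window held it at base 185 on the other strand. No match was found in the Clec4f window. Among all 32851 promoters of the table, 28.3% held the motif on either strand. Of the other markers in the table, Marco and Trem2 had 1 match each, Cd68 had 2, and Itgax, Timd4 and Gpnmb had none. CACGTG, the E-box core, was in 7.15% of all promoters and in none of the 9 markers listed. Adgre1 is not in the table. A match of letters is a description and not a bound site.

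Marco, a class A scavenger receptor for bacteria and particles, varied most of the Kupffer cell markers on HFD. Its levels ran from 9.18 to 12.26 on HFD (median 9.95), from 10.94 to 11.83 on HFD + inulin (11.50), from 10.13 to 11.66 on HFD + inul PB (10.66) and from 9.17 to 11.96 on LFD (10.85). On HFD, 5 of 6 arrays were below every HFD + inulin array, and HFD replicate 3 was above all of them. The Marco level on HFD + inulin was 1.12 above HFD (SE 0.469, 95% interval 0.15 to 2.10, unadjusted limma P = 0.0258, adjusted P = 1), with a two-sided exact permutation P of 0.0433. This did not meet the criterion. Without HFD replicate 3 the difference was 1.52 with an unadjusted limma P of 0.00144, which does. Within the 3 slides the difference was 1.96, -0.21 and 1.62, so that the slide holding HFD replicate 3 went the other way. HFD + inul PB and LFD lay 0.42 and 0.50 above HFD for Marco, with intervals from -0.56 to 1.39 and from -0.48 to 1.47.

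Timd4, the phosphatidylserine receptor TIM-4 that long-lived resident macrophages use to take up dying cells, was highest on LFD. It ranged from 7.05 to 8.27 on LFD (median 7.92), from 7.00 to 7.79 on HFD (7.25), from 6.71 to 7.74 on HFD + inulin (7.53) and from 6.69 to 7.73 on HFD + inul PB (6.92). On LFD, 4 of 6 arrays lay above every array of the other diets. LFD was 0.46 above HFD (SE 0.213, unadjusted limma P = 0.0413, adjusted P = 0.715), and an exact permutation test gave P = 0.0606. The fiber diets were 0.06 above and 0.27 below HFD for Timd4. Their mean was 0.57 below LFD (SE 0.184, limma adjusted P = 0.398), a 1.48-fold difference that meets the criterion for P and falls just short of that for fold. Without LFD replicate 3, the lowest LFD array, the difference of the fiber mean from LFD was -0.71 and was called, and so was that of LFD from HFD at 0.61. For the fiber mean against LFD, leaving out any one of 5 other arrays also brought Timd4 past the fold criterion.

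Among the recruited and lipid-associated markers, a called difference from HFD in liver was found for Itgax alone, which was lower. Of the 3 measured, Itgax was called on both fiber diets, Trem2 on none, and Gpnmb gave no fold. Of the 9 markers together, HFD + inulin had 1 called by fold and P, HFD + inul PB 1 and LFD 0, beside 0.399%, 0.289% and 0.717% of all probes. After adjustment 0 of 9 were called in each, beside 0%, 0% and 0.0287% of all probes, and at an unadjusted limma P under 0.05 the counts were 3, 1 and 1, beside the shares of all probes given above at that threshold. Between the fiber diets 0 of 9 were called by fold and P, beside 0.198% of probes, and 0 after adjustment, beside 0%. At an unadjusted limma P under 0.05 none of the 9 differed between the fiber diets. Against LFD, the mean of the fiber diets had 1 of 9 called (Itgax), beside 0.774% of probes, and 0 after adjustment, beside 0.0593%.

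**Figure D2:**
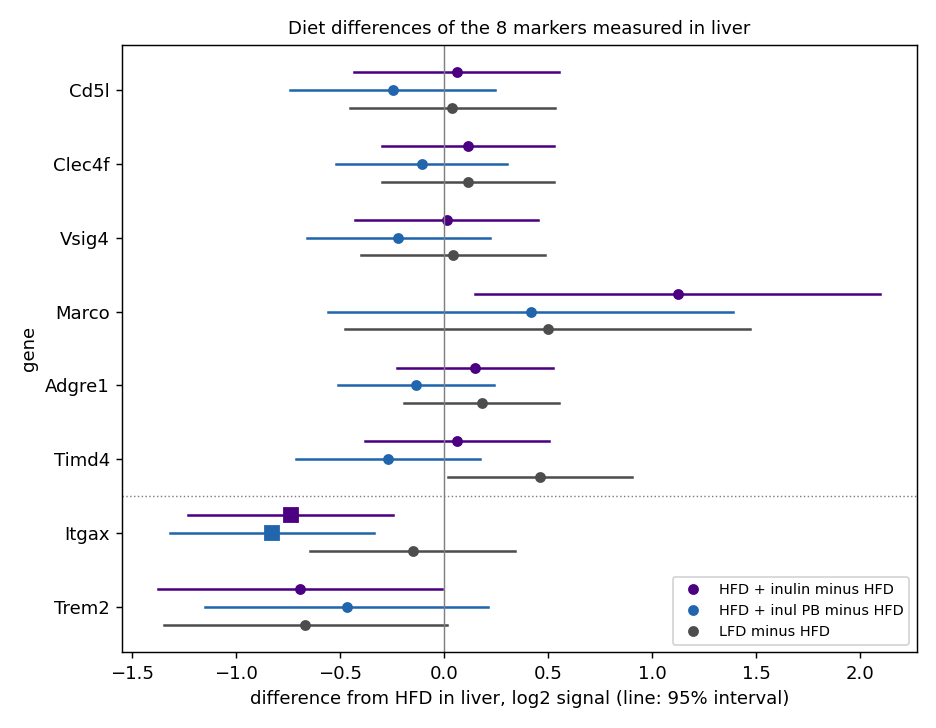
Difference in liver of each diet from HFD on the log2 scale for the measured markers, with 95% intervals of the limma fit over 24 arrays. Squares are differences called by fold and P. Itgax is the only marker called, at -0.83 on HFD + inul PB and -0.74 on HFD + inulin, and most other intervals cross 0.

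Itgax, the integrin alpha X chain, was lower in liver on both fiber diets. Its levels ran from 6.66 to 8.09 on HFD (median 7.21), from 6.12 to 7.12 on HFD + inulin (6.43), from 6.31 to 6.64 on HFD + inul PB (6.50) and from 6.66 to 7.62 on LFD (7.22). Every HFD + inul PB array lay below every HFD array and below every LFD array, whereas the HFD + inulin arrays overlapped with HFD. The SD was 0.112 on HFD + inul PB and 0.587 on HFD.

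HFD + inul PB was 1.78-fold below HFD for Itgax, a log2 difference of -0.83 (SE 0.237, 95% interval -1.32 to -0.34, unadjusted limma P = 0.00214, adjusted P = 1), with a two-sided exact permutation P of 0.002165, the smallest that 6 arrays against 6 can give. HFD + inulin was 1.67-fold below HFD, a log2 difference of -0.74 (SE 0.237, 95% interval -1.23 to -0.24, unadjusted limma P = 0.00526, adjusted P = 1), with an exact permutation P of 0.0368. Both comparisons use the same HFD arrays, and the study's own list of liver genes changed on both diets, chosen on these samples, includes Itgax, so the direction is not independent evidence.

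In order of mean level, Itgax stood at 7.30 on HFD, 7.15 on LFD, 6.57 on HFD + inulin and, lowest, 6.47 on HFD + inul PB. The neighbours HFD and LFD differed by 0.15 (95% interval of LFD minus HFD -0.64 to 0.34), and the fiber diets by 0.09 (-0.58 to 0.40), neither beyond the spread between arrays. These intervals do not show that the levels are alike. The mean of the fiber diets was 0.63 below LFD (SE 0.205, limma adjusted P = 0.401), which met the criterion of fold and P at 1.55-fold.

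The Itgax difference was uneven over the slides, each of which held 2 arrays per diet. HFD + inul PB was below HFD by 0.37, 1.39 and 0.72 within the 3 slides. HFD + inulin was below HFD by 0.01, 1.77 and 0.43, so that one slide held most of it. LFD was 0.68 above HFD within 1 slide and 0.74 and 0.39 below within the others. With slide as a block the unadjusted limma P was 0.00214 for HFD + inul PB and 0.00518 for HFD + inulin. Each diet always lay at the same positions of a slide, in columns that HFD shares with HFD + inulin and not with HFD + inul PB or LFD, so that for the latter diets column and diet cannot be told apart.

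The HFD + inulin call of Itgax rested on single arrays. It fell outside the criterion without any one of HFD replicates 3, 4 or 6 or of HFD + inulin replicates 3, 4 or 6, with differences from -0.58 to -0.70 and an unadjusted limma P of up to 0.0189. The HFD + inul PB call was kept without each of the 24 arrays in turn, at -0.67 to -0.96. With the normexp background correction, which compresses dim probes, it was -0.54, under the fold criterion, with an unadjusted limma P of 0.000717.

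The Itgax promoter is shown as that of the marker that was called in liver. It covers chr7:128129300-128129599 on the plus strand of GRCm38.p6, from RefSeq, and holds neither motif.
Itgax: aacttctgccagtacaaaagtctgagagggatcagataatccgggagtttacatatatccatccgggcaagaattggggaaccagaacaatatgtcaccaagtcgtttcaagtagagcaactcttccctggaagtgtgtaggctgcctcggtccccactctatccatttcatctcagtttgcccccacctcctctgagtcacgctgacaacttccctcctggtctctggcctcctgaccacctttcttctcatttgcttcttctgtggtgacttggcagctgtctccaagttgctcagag

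Trem2, a lipid-sensing receptor of macrophages and microglia, was highest on HFD in liver. It ran from 7.58 to 8.59 on HFD (median 8.06), from 6.21 to 8.30 on HFD + inulin (7.39), from 7.40 to 8.09 on HFD + inul PB (7.46) and from 6.65 to 8.46 on LFD (7.32). All diets overlapped with HFD, although 5 of 6 HFD + inul PB arrays lay below every HFD array. Trem2 was 0.69 below HFD on HFD + inulin (SE 0.328, 95% interval -1.37 to -0.01, unadjusted limma P = 0.0466, adjusted P = 1, exact permutation P = 0.0952). On HFD + inul PB it was 0.47 below (-1.15 to 0.21, exact permutation P = 0.0217), and on LFD 0.67 below (-1.35 to 0.01, exact permutation P = 0.0584). None of these met the criterion. The mean Trem2 level of slide 1 over all diets was 8.05, against 7.29 and 7.36 on the others, and with slide as a block the unadjusted limma P was 0.0168, 0.0931 and 0.0207.

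Across the 24 liver arrays, with each diet's mean removed, the Kupffer cell markers rose and fell together. The 15 pairs of the 6 genes had correlations from 0.448 to 0.960, with a median of 0.826. Clec4f with Cd5l gave 0.960, Cd5l with Vsig4 0.946 and Clec4f with Vsig4 0.942, and the loosest pair was Clec4f with Marco at 0.448. With the slide means removed as well, the median over the 15 pairs was 0.841. The 12 pairs of 1 Kupffer cell marker with Itgax or Trem2 ran from 0.018 to 0.698 with a median of 0.439, and Itgax with Trem2 gave 0.376. All genes of an array share its tissue piece, slide and normalisation, and the correlations are given as a description with no test.

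**Figure D3:**
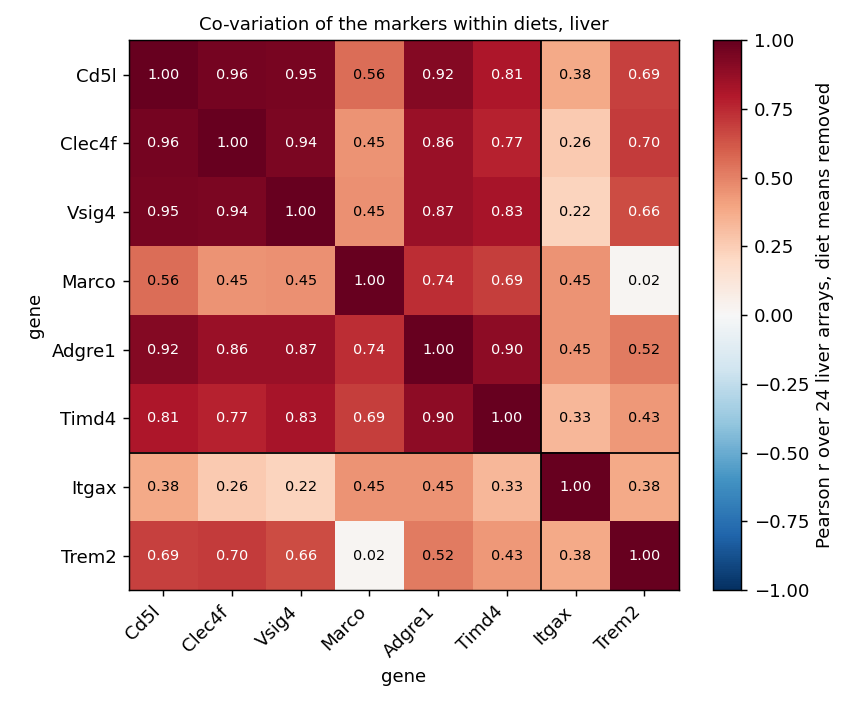
Correlation of the measured markers across 24 liver arrays after the mean of each diet was removed. The block of Kupffer cell markers holds values from 0.448 to 0.960, and the Itgax and Trem2 rows against that block run from 0.018 to 0.698.

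The genes whose pattern over the 24 liver arrays, with diet means removed, was most like the mean of the 6 Kupffer cell markers, among 11688 genes, included Cfp (r = 0.945), Csf1r (0.919), Igsf6 (0.902) and Folr2 (0.902). Csf1r is the receptor for the growth factor of macrophages, and Cfp encodes properdin, a complement protein. For Itgax, among 11693 genes, they were Cd52 (0.852), Selplg (0.820), Ubash3b (0.814), Rasa4 (0.803) and Slamf9 (0.781). Cd52 and Selplg are surface proteins of leukocytes in general. Slamf9 and Igsf6 belong to the immunoglobulin superfamily of leukocyte receptors.

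Of 20 other genes of resident macrophages, among them C1qa, C1qb and C1qc of complement, 0 were called in liver in any of the 5 comparisons by limma. Of all probes, between 0.198% and 0.774% were called by fold and P in these comparisons. The median difference of the 20 genes from HFD was 0.11 for LFD, 0.06 for HFD + inulin and -0.13 with the esters. In that order 3, 0 and 1 of the 20 had an unadjusted limma P under 0.05, beside 6.77%, 3.79% and 3.13% of all probes. The complement gene C6 was 0.40 above HFD on LFD (exact permutation P = 0.0390) and the NAD-consuming enzyme Cd38 0.31 above (exact permutation P = 0.0303), both short of the fold criterion. The hemoglobin receptor Cd163 was well above background on 1 of 24 liver arrays, so the list says nothing of it.

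Of 15 further genes of lipid-associated macrophages, 0 were called on either fiber diet against HFD, beside 0.399% and 0.289% of all probes. At an unadjusted limma P under 0.05 there was 1 on each, beside 3.79% and 3.13% of all probes. On LFD 2 were called higher and 1 lower than on HFD, beside 0.717% of all probes. Fabp5, a fatty acid binding protein, was 2.75 higher (SE 0.519, limma adjusted P = 0.0618), the tetraspanin Cd9 was 1.02 higher (SE 0.188, adjusted P = 0.0536), and the fatty acid transporter Cd36 was 0.83 lower (limma adjusted P = 0.485). All Cd9 arrays on LFD lay above all HFD arrays. The mean of the fiber diets was below LFD for Fabp5 by 2.44 (limma adjusted P = 0.0460) and for lipoprotein lipase Lpl by 0.65. Cell types other than macrophages also express Fabp5, Cd9, Cd36 and Lpl.

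Of 15 monocyte and recruitment genes, 14 were measured, and 0 were called in liver against HFD. Of all probes, 0.399%, 0.289% and 0.717% were called on HFD + inulin, HFD + inul PB and LFD. On these diets 2, 2 and 0 of the 14 genes had an unadjusted limma P under 0.05. The shares of all probes at that P were 3.79%, 3.13% and 6.77%. Ccr2, the receptor that brings monocytes out of the marrow, was 0.84 below HFD on HFD + inulin and 0.75 below on HFD + inul PB (exact permutation P = 0.0303 and 0.0238), but was well above background on 14 of 24 liver arrays, 5 on HFD and 2 on each fiber diet, so the size of its differences is uncertain. Its ligand Ccl2 was 0.68 and 0.89 below (exact permutation P = 0.0866 and 0.0195). The Ccl2 mean of the fiber diets was 0.81 below LFD, the 1 gene of the list that met the criterion there, beside 0.774% of all probes.

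Because Itgax also marks dendritic cells, 15 genes of dendritic cells and antigen presentation are set beside it, of which 14 had a probe. None was called on either fiber diet against HFD, beside 0.399% and 0.289% of all probes. None had an unadjusted limma P under 0.05, beside 3.79% and 3.13% of all probes, while 11 of 14 were lower on HFD + inulin and 10 of 14 on HFD + inul PB. The mean level over the list, relative to each gene's mean over all liver arrays, ran from -0.31 to 0.45 on HFD, from -0.38 to 0.06 on HFD + inulin, from -0.32 to 0.03 on HFD + inul PB and from -0.11 to 0.53 on LFD. Against LFD, the fiber mean was lower for 13 of 14, with a median of -0.46, and 5 were called, beside 0.774% of all probes: Cd209a at -0.90, the class II invariant chain Cd74 at -0.77, and the MHC class II genes H2-Ab1 (-0.76), H2-Aa (-0.75) and H2-Eb1 (-0.73), all with a limma adjusted P over 0.05. Xcr1 was not well above background on any liver array, Cd209a on 8 of 24 and Flt3 on 13 of 24. Itgax moved with these genes between the fiber diets and LFD, but not in every comparison. On LFD against HFD in liver, 11 of 14 were higher and 3 lower, with a median of 0.38 and none called. Itgax was 0.15 lower there, with an interval from -0.64 to 0.34. In cecum on HFD + inul PB, 8 of 14 were higher than on HFD and 6 lower, with a median of 0.075, while Itgax was 0.83 lower. The part of these genes in the Itgax differences was not tested.

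Among other leukocyte genes, calls in liver came from the lymphocyte list. Of its 13 genes, 1 was called on LFD against HFD, beside 0.717% of all probes, the B cell receptor chain Cd79b at 0.78 higher. On LFD 11 of 13 were higher than on HFD, with a median of 0.41. At an unadjusted limma P under 0.05 there were 4, beside 6.77% of all probes. Against LFD, the fiber mean had 2 called, both lower, beside 0.774% of all probes. The T cell receptor chains Cd3g and Cd3d were 1.02 and 0.93 lower in that comparison. On each fiber diet against HFD 0 were called, beside 0.399% and 0.289% of all probes. Lists of neutrophil (10 genes), hepatocyte (8), sinusoidal and stellate cell (8), gut epithelial (8) and adipocyte genes (8) had 0 calls in any liver comparison by limma, with between 0 and 3 genes of a list at an unadjusted P under 0.05. Of all probes, between 0.198% and 0.774% were called by fold and P in a liver comparison. Between 2.29% and 7.22% were under that unadjusted limma P. The adipocyte list ran from -0.86 to 1.32 over the HFD livers and from -1.18 to 2.49 over the HFD + inul PB livers, with single liver arrays standing well above the others on each diet.

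In cecum, a tissue with its own resident macrophages but no Kupffer cells, the narrow Kupffer cell markers were near background. Clec4f was well above background on 0 of 22 cecum arrays, and Vsig4 and Timd4 on 2 each. Itgax, Trem2, Adgre1, Cd5l and Marco were well above background on all 22, and Gpnmb on 19. With both tissues normalised together, Clec4f was at least 179-fold higher in liver than in cecum on every diet, and Vsig4 at least 128-fold on the 3 diets where no cecum array measured it. Such a bound compares the mean of the bright group with the higher, on each dim array, of the dim probe and the lowest signal well above background. Cd5l was 44.6- to 66.3-fold higher in liver, Marco 29.2- to 56.0-fold and Adgre1 2.31- to 3.03-fold. Itgax went the other way, 5.11- to 7.97-fold higher in cecum, and Gpnmb was at least 2.92-fold higher in cecum on HFD and at least 4.71-fold on LFD.

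**Figure D4:**
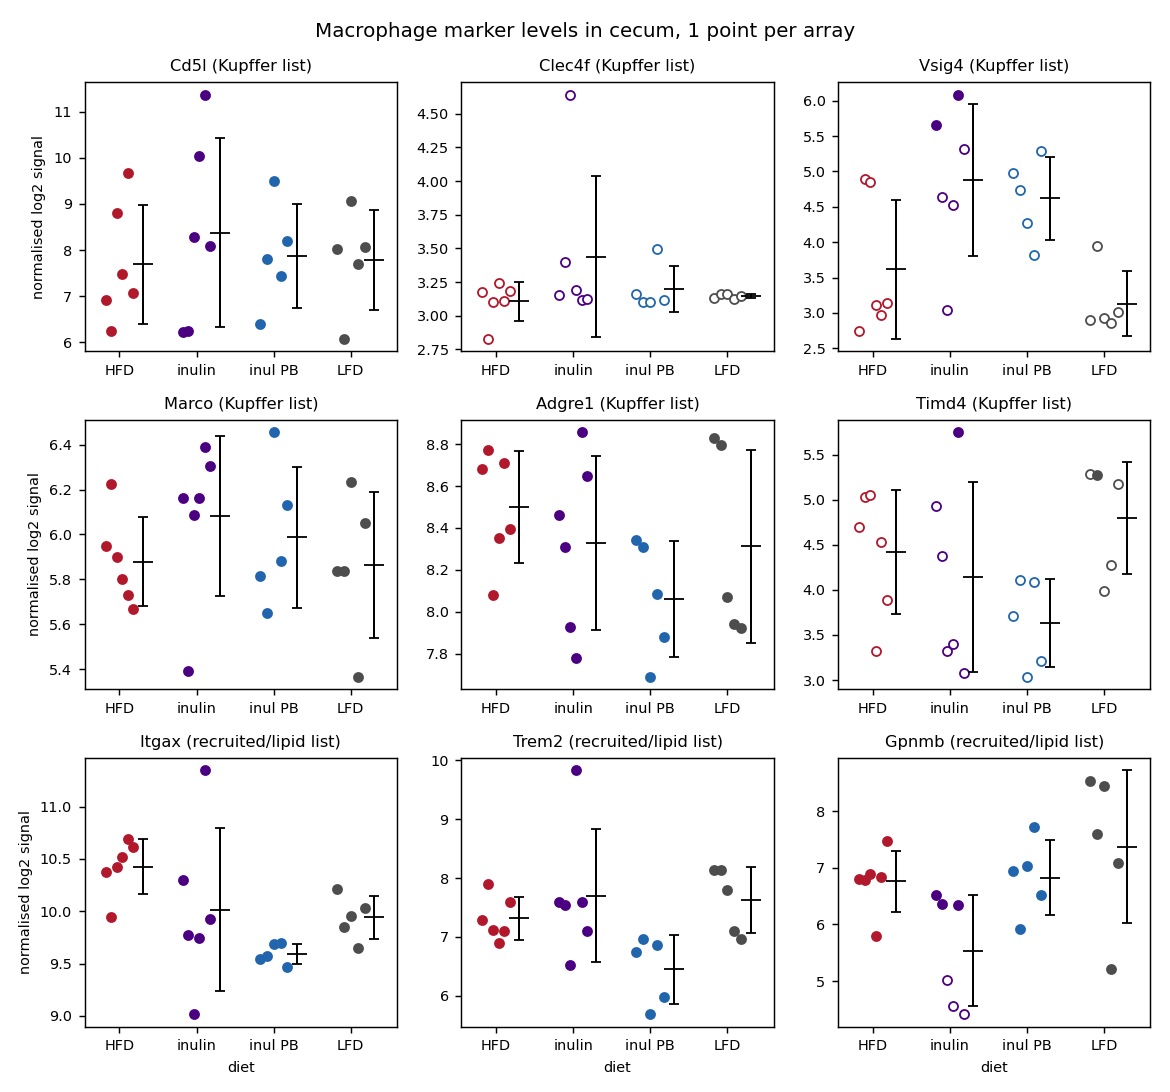
Normalised log2 signal of the 9 measured macrophage markers in cecum by diet, 1 point per array, filled where the probe was well above background, with the mean ± SD of 5 or 6 arrays. Itgax on HFD + inul PB (9.47 to 9.70) lay below every HFD array (9.94 to 10.69), and Clec4f was at background throughout.

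Itgax was lower on HFD + inul PB in cecum as well. The 6 HFD arrays ran from 9.94 to 10.69 with a median of 10.47, and the HFD + inulin arrays from 9.01 to 11.35 with a median of 9.85. The 5 HFD + inul PB arrays were 9.55, 9.57, 9.68, 9.70 and 9.47, and the 5 LFD arrays 10.21, 9.85, 9.96, 9.65 and 10.03. HFD + inul PB did not overlap with HFD, and the other diets did. The difference was -0.83 on HFD + inul PB (SE 0.261, 1.78-fold, unadjusted limma P = 0.00465, adjusted P = 0.0594), with an exact permutation P of 0.00433. It was -0.60, -0.79 and -1.07 within the 3 slides, and with slide as a block -0.87 (limma adjusted P = 0.0429). As in liver, HFD + inul PB and HFD lay in different columns of every slide, so that column and diet cannot be told apart. HFD + inulin and LFD lay 0.41 and 0.49 below HFD (95% intervals -0.93 to 0.11 and -1.03 to 0.06). The HFD + inulin result depended on replicate 5, its highest array at 11.35. Without that array the log2 difference of HFD + inulin from HFD was -0.68 and was called at both criteria. The Itgax call on HFD + inul PB was lost without HFD replicate 5, HFD replicate 6 or HFD + inul PB replicate 5, at an unadjusted limma P from 0.0101 to 0.0112.

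The 9 markers had 0 calls by fold and P on HFD + inulin in cecum, beside 2.47% of all probes, 1 on HFD + inul PB (Itgax), beside 4.69%, and 0 on LFD, beside 0.639%. Adjusted, they had 0 in each, beside 1.58%, 7.02% and 0% of probes, and at an unadjusted limma P under 0.05 they had 2, 1 and 0, beside 14.1%, 19.9% and 5.24%, shares that do not set the markers apart from all probes. Between the fiber diets 1 was called (Trem2), beside 0.803%, and 0 after adjustment, beside 0.0216%, with 2 at an unadjusted limma P under 0.05, beside 6.36%. For the fiber mean against LFD 1 was called (Vsig4), beside 1.49%, and 0 after adjustment, beside 1.12%, with 3 at an unadjusted limma P under 0.05, beside 11.9%.

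Trem2 in cecum ran from 6.89 to 7.91 on HFD (median 7.21), from 6.53 to 9.83 on HFD + inulin (7.57), and was at 5.69 to 6.97 on HFD + inul PB (6.75) and 6.96 to 8.14 on LFD (7.80). HFD + inul PB lay lowest, with 1 of its arrays reaching the HFD range. HFD + inul PB was 1.25 below HFD + inulin (SE 0.426, unadjusted limma P = 0.00811, adjusted P = 0.620, exact permutation P = 0.0260) and 0.87 below HFD (95% interval -1.76 to 0.02, exact permutation P = 0.00649). HFD + inulin replicate 4, at 9.83, stood above the other arrays, and without it the former difference was -0.83, with an unadjusted limma P of 0.0132. The call was likewise lost without HFD + inulin replicates 1, 2 or 5 or HFD + inul PB replicates 3 or 5.

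Gpnmb in cecum was lowest on HFD + inulin, at 4.41 to 6.52 with a median of 5.68, where 3 of 6 arrays were well above background. On HFD it ran from 5.80 to 7.47, on HFD + inul PB from 5.92 to 7.72 and on LFD from 5.21 to 8.54. The ranges overlapped. HFD + inulin was 1.23 below HFD (SE 0.511, unadjusted limma P = 0.0264, adjusted P = 0.264, exact permutation P = 0.0346) and 1.29 below HFD + inul PB (unadjusted limma P = 0.0261), neither of which met the criterion.

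Vsig4 in cecum was called for the fiber mean against LFD (limma adjusted P = 0.0808), but only 2 arrays measured it, both on HFD + inulin. The group means were 3.13 on LFD, 4.88 on HFD + inulin and 4.62 with the esters, and the bound for HFD + inulin over LFD was at least 1.02-fold. Adgre1 was 0.44 below HFD on HFD + inul PB (95% interval -0.89 to 0.01), while its dimmer probe was 0.78 below (limma adjusted P = 0.0329), so the Adgre1 probes differ in call. Marco differed from HFD by at most 0.20 on any diet. Cd5l spread from 6.07 to 11.37 over the cecum arrays, with differences from HFD of 0.68, 0.17 and 0.09 and an interval as wide as -1.02 to 2.39 on HFD + inulin.

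The response of the markers in liver was compared with that in cecum in 1 limma model of all 46 arrays. For the fiber mean against HFD, 0 of 9 markers differed between the tissues after adjustment, beside 2.1% of probes. For LFD against HFD it was 0 of 9, beside 0.0359%. Of the 18 values, 1 had an unadjusted limma P under 0.05, that of Vsig4 for the fiber diets (-1.25, limma adjusted P = 0.154), which the cecum arrays hardly measured, beside 13.8% of probes for the fiber diets and 7% for LFD. For Itgax the liver difference minus the cecum difference was -0.16 on the fiber diets (95% interval -0.75 to 0.43) and 0.32 on LFD (-0.37 to 1.02). The Itgax response was not shown to differ between the tissues, and the intervals do not show that it was the same.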

How the data were processed

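RNA of 46 samples was hybridised to one-colour Agilent mouse arrays. The authors deposited the scanner output of each array, in which spot intensity is linear and, per the file headers, background-subtracted and detrended, but not normalised between arrays. The authors' table of log2 values, which they normalised by cyclic loess, served as an alternative. No column of another series was present, and no fold or P column was used. Samples were grouped by tissue and diet from their labels.

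Control spots and outlier spots were left out, log2 intensities were normalised within each tissue by cyclic loess (span 0.7), spots of a probe were averaged, and all diets of a tissue were fitted in 1 model with limma 3.58.1 in R 4.3.3 (files read with the data.table package, version 1.17.8), a procedure tested on simulated data. P values were adjusted by Benjamini-Hochberg over 55681 probes. Exact permutation tests were two-sided. Of the probes, 27509 matched a gene symbol in RefSeq (GRCm38.p6, used for names and promoters). The probe of highest mean log2 signal in a tissue represented each gene there. A probe's level is relative, no spot was flagged as saturated, and the number of arrays limits the precision.

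All members are named, with tests where the unadjusted P was under 0.05, and of each other list up to 3 genes with the lowest P against HFD and those called in liver. A gene among those most like the Kupffer cell markers and a gene of the list of other resident macrophage genes are not reported here. The members and lists were chosen with earlier results of these data known. Alternatives covered normalisation, background correction, spot and probe filters, slide, scan day, position and replicate number as blocks, fits of single comparisons and omission of each array. Counts for the other lists under the alternatives and differences within slides were added after the data had been seen.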

Additional observations from a re-analysis of the deposited data

Results flagged for a closer look

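Single arrays stood apart from the rest of their diet in 4 of 36 groups of a marker and diet in liver and in 6 of 36 in cecum, where the gap from the extreme array to the nearest other, as a share of the group's range, exceeded the 95% critical value of Dixon's test (0.625 for 6 arrays, 0.71 for 5). Chance alone gives about 1 in 20 groups. No marker's response differed between liver and cecum after adjustment.

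In liver, HFD replicate 3 had the highest Adgre1 level of its diet at 9.73, with the nearest at 9.25 (share 0.812). The same array also held the highest HFD levels of Marco, Itgax, Timd4 and Cd5l. HFD + inul PB replicate 2 had the highest Trem2 level at 8.09, against 7.50 (0.853). Gpnmb was highest on HFD + inul PB replicate 4 at 5.78 (0.63), its only measured value in liver, and on LFD replicate 3 at 4.58 (0.771), where it was not well above background.

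In cecum, HFD + inulin replicate 4 had a Trem2 level of 9.83, with the nearest at 7.60 (0.677), and HFD + inulin replicate 2 had the lowest Marco level at 5.39, against 6.09 (0.697). The remaining cases were not well above background: Vsig4 on LFD replicate 2 at 3.95 (0.863), and Clec4f on HFD replicate 2 at 2.83 (0.657), on HFD + inulin replicate 3 at 4.64 (0.816) and on HFD + inul PB replicate 4 at 3.50 (0.838). The cause of these values was not tested.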

How the results depend on the processing

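Over the alternatives, no called difference of a marker changed sign. Among all differences, called or not, 5 of 594 values in liver and 17 of 584 in cecum changed sign under the other settings. With 1 array left out at a time, 26 of 1080 values in liver and 17 of 990 in cecum changed sign. The cause of the changes below was not tested. In liver, the count of markers called by fold and P fell from 1 to 0 with normexp background correction on HFD + inulin, HFD + inul PB and for the fiber mean against LFD. For the last it was also 0 when background was not corrected and when the authors' values were used, and on HFD + inulin it was 0 with slide position (slide, row and column) as blocks and when the diets compared were fitted alone. In cecum, the count on HFD + inulin rose from 0 to 1 with scaling to the 75th percentile, with loess over both tissues and with slide position as blocks. On HFD + inul PB it was 2 when the diets compared were fitted alone. Between the fiber diets it was 0, in place of 1, with normexp, without background correction, with the authors' values and with these diets fitted alone, and for the fiber mean against LFD it was 0 among probes well above background. After adjustment, the HFD + inul PB count in cecum rose from 0 to 1 with loess over both tissues, normexp, no background correction, the authors' values, the filter on background and these diets fitted alone, and to 2 with slide as a block. Leaving out 1 array at a time gave, by fold and P in liver, 0 to 1 on HFD + inulin, 1 to 1 on HFD + inul PB, 0 to 1 on LFD and 0 to 2 for the fiber mean against LFD. In cecum it gave 0 to 1 on HFD + inulin, 0 to 2 on HFD + inul PB, 0 to 2 between the fiber diets and 1 to 2 for the fiber mean against LFD, and after adjustment 0 to 1 for HFD + inulin, HFD + inul PB and the fiber mean against LFD.

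Samples share replicate numbers across diets, and the same number in liver means the same slide and slide row. A correlation of deviations over 0.1 was found for 19 of 36 same-numbered pairs in liver and 11 of 31 in cecum, and for 13 of 180 and 16 of 150 differently numbered pairs. The medians were 0.104 and 0.058 for the same number, and -0.028 and -0.02 for different numbers. Same-numbered arrays were thus more alike than others, although not every such pair passed 0.1. The main fit left the replicate number out, and an alternative took it as a block. With the replicate block the counts of called markers were unchanged, 1 for each fiber diet against HFD in liver, and the unadjusted limma P of Itgax was 0.00931 and 0.00431.

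Over all probes, the authors' values gave 68, 54 and 196 calls by fold and P in liver on HFD + inulin, HFD + inul PB and LFD, against 222, 161 and 399 here. For the fiber diets against each other they gave 16 against 110, and for their mean against LFD 177 against 431. In cecum they gave 743, 1616, 151, 159 and 406 against 1375, 2611, 356, 447 and 832. With scaling to the 75th percentile the share of calls that were higher moved in liver from 54.7% to 43.0% on HFD + inul PB, from 59.1% to 48.6% on LFD and from 30.9% to 41.2% for the fiber mean against LFD, and in cecum from 55.9% to 37.8% on LFD and from 40.9% to 60.2% for the fiber mean against LFD, where the median of all probes moved to 0.13. Gpnmb in liver and Clec4f, Vsig4 and Timd4 in cecum are limited by signal over background.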

Other observations

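In cecum on HFD + inul PB, other macrophage and leukocyte genes were called against HFD beside Itgax. In that comparison 4.69% of all probes were called. Of 20 genes of resident macrophages, 1 was higher and 4 were lower. The complement gene C1qa was 0.91 lower and the lipid sensor Nr1h3 0.77 lower (limma adjusted P = 0.0159 and 0.0122), and the engulfment receptor Mertk was 0.86 higher (limma adjusted P = 0.00453). Of 15 further genes of lipid-associated macrophages 4 were lower, with log2 differences of -2.50 for Cd36, -1.68 for Lpl, -0.78 for Tyrobp, the signalling adaptor of Trem2, and -0.67 for Fabp5 (limma adjusted P = 0.0208, 0.0465, 0.0337 and 0.0656). Of 13 lymphocyte genes 5 were lower, among them Cd8a by 1.00 and the B cell gene Cd79b by 1.44 (limma adjusted P = 0.00110 and 0.0112). Lymphocyte genes were lower on the other diets too. Of the 13, 2 were called on HFD + inulin, beside 2.47% of all probes, and 4 on LFD, beside 0.639%. Their median difference from HFD was -0.63 on LFD, -0.53 on HFD + inul PB and -0.48 on HFD + inulin.

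Of 8 adipocyte genes, 5 were called lower and 1 higher in cecum on HFD + inul PB, beside 4.69% of all probes. Their median difference from HFD was -3.675. Fabp4, a fatty acid binding protein, was 3.05 lower (limma adjusted P = 0.0400). The mean level over the list ran from 0.03 to 3.29 on the HFD arrays of cecum and from -3.29 to 0.50 on the HFD + inul PB arrays. Cell types other than macrophages also express Cd36, Lpl and Fabp5. The part of the adipocyte genes in the lower Cd36, Lpl, Fabp5, Itgax, Trem2 and Tyrobp levels of that diet was not tested.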
